A study of Mus musculus with 29 samples.

Results

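The genes of the melanopsin light response were followed across 29 single retinal ganglion cells (RGCs) of the mouse. They were chosen by name: melanopsin (*Opn4*), the T-box factor gene *Eomes*, the G protein genes *Gnaq*, *Gna11* and *Gna14*, the phospholipase gene *Plcb4* and the channel genes *Trpc6* and *Trpc7*. These 8 genes, of 18194 with a value, were represented by 23 probe sets, of 34958 that belonged to a single gene. Of the 8 genes, 5 were detected in at least 1 cell and 3 in none.

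The cells came from the retina of adult C57BL/6 mice (C57BL/6J in the study's methods), with no transgene named in the labels, and none was treated. Each was typed by cell-attached recording of its spikes under visual stimuli, drawn into a pipette and hybridized, after amplification of its cDNA, to 1 array of its own. They comprised 4 ON direction selective (ON DS) cells, 4 ON-OFF DS cells, 1 ON cell each selective for vertical (ON vOS) and horizontal (ON hOS) orientation, 1 J-RGC, and alpha cells of 3 types (2 ON, 4 OFF sustained or OFF S, 3 OFF transient or OFF T). The remaining cells were 2 suppressed by contrast (SbC) cells and 1 each of the ON pixel encoder (PixON), ON sustained non-alpha (ON S non-alpha), local edge detector (LED), OFF high speed selective and EyeWire 4i, 6sn and 6sw types. Cells are named by type and by the number in their label. No source used here names the animal of a cell, and 1 array per cell gives no spread between replicates, so the values are descriptions and no test was made between groups of cells. Signals are linear and in arbitrary units. Here a gene counts as detected where its signal reached 3000, or 2 times the trimmed mean of 1500 that all arrays shared.

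Melanopsin is the photopigment of the intrinsically photosensitive RGCs (ipRGCs), which respond to light without input from rods and cones, entrain the circadian clock and drive the pupil reflex. The activated receptor couples to G proteins of the Gq family, these activate a beta-type phospholipase C, and the channels TRPC6 and TRPC7 open and depolarize the cell. ON alpha cells are known as a type of ipRGC with little melanopsin. *Eomes*, also called *Tbr2*, encodes a transcription factor that ipRGCs need for their formation and their survival in the mouse.

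The promoters of *Opn4* and *Eomes* are shown because *Eomes* was detected only in cells with *Opn4*, and that of *Plcb4* because this gene was the most widely detected of the 8. Each sequence is the 250 bases before a RefSeq start site (build GRCm38.p6), 5′ to 3′ on the strand of the gene. Capitals mark matches, searched on both strands, to the T-box half-site GTGTGA, the CCAAT box (CCAAT) and the GC box (GGGCGG).
Opn4, chr14:34600143-34600392, minus strand: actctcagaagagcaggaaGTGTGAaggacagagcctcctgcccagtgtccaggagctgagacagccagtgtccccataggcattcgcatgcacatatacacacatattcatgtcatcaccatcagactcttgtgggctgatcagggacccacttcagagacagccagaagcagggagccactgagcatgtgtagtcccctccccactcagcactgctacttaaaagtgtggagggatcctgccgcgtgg
Eomes, chr9:118477939-118478188, plus strand: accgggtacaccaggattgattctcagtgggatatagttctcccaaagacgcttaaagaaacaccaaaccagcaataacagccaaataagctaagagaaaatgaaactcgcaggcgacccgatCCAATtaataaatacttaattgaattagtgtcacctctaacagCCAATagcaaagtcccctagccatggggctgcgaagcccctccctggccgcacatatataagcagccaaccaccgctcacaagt
Plcb4, chr2:135659297-135659546, plus strand: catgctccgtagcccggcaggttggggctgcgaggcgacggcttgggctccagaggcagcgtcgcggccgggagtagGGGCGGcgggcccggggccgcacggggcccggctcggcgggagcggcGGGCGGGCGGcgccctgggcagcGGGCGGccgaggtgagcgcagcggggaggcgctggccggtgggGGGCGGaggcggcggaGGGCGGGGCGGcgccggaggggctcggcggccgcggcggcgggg
The *Opn4* window held 1 T-box half-site, whose first base was at position -231 from the start site, and 3 CpG dinucleotides at 54.8% GC. The longer T-box site GGTGTGA was also searched and was in no window of the 8 genes, against 3.33% of all windows. The *Eomes* window held 2 CCAAT boxes, at positions -127 and -84, and 8 CpG at 46.4% GC. The *Plcb4* window held 7 GC boxes, of which 2 pairs overlapped, and 42 CpG at 85.2% GC. The windows of *Gnaq* and *Gna11*, which most tissues express, were also rich in CpG, with 37 CpG and 4 GC boxes for the first and 38 CpG and 2 GC boxes for the second. The windows of the 3 genes detected in no cell held fewer CpG than those of *Gnaq* and *Gna11*. They had 7 for *Gna14*, 12 for *Trpc6* and 2 for *Trpc7*, and none of the 3 motifs marked by capitals. The detected genes *Opn4* and *Eomes*, with 3 and 8 CpG, lay in the same range as these undetected genes. A second *Plcb4* start site had 3 CpG and no match. Over the 32851 windows of this length, the median was 6 CpG, and 12.3% held the T-box half-site, 33.8% the CCAAT box and 32.7% the GC box. A match is a run of letters and was not tested as a binding site.

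*Opn4* was detected in 4 of the 29 cells (13.8%, exact Clopper-Pearson 95% interval 3.89 to 31.7, which covers counting error only). At probe set 1445121_at the signal was 34985 in ON DS 1, 20203 in ON hOS 10, 50210 in ON alpha 12 and 76724 in ON alpha 13. In the other 25 cells this signal ran from 2.25 to 356, with a median of 14.8. No cell lay between 356 (OFF high speed selective 23) and 20203, so the threshold of 3000 fell in an empty range. Probe set 1421584_at gave the same 4 cells, with 11449 in ON DS 1, 41990 in ON hOS 10, 34813 in ON alpha 12 and 12799 in ON alpha 13, and at most 139.55 elsewhere. The probe sets placed the 4 cells in different orders, with ON alpha 13 highest at the first and ON hOS 10 highest at the second, so the data do not settle which of the 4 cells had the most melanopsin transcript.

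All 4 cells with *Opn4* gave ON responses, and they belonged to 3 recorded types. Both ON alpha cells had it, as did 1 of 4 ON DS cells and the single ON hOS cell. The other 6 ON cells (ON DS 2, ON DS 3, ON DS 4, ON vOS 9, PixON 27 and ON S non-alpha 28) had *Opn4* signals from 3.04 to 189. Here and below, ON cells are those whose label names an ON response alone. The labels of the EyeWire, J-RGC, SbC and LED cells name neither ON nor OFF, so none of these was counted as an ON cell. It was below the threshold in the 4 ON-OFF DS cells and the 7 OFF alpha cells.

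**Figure D1:**
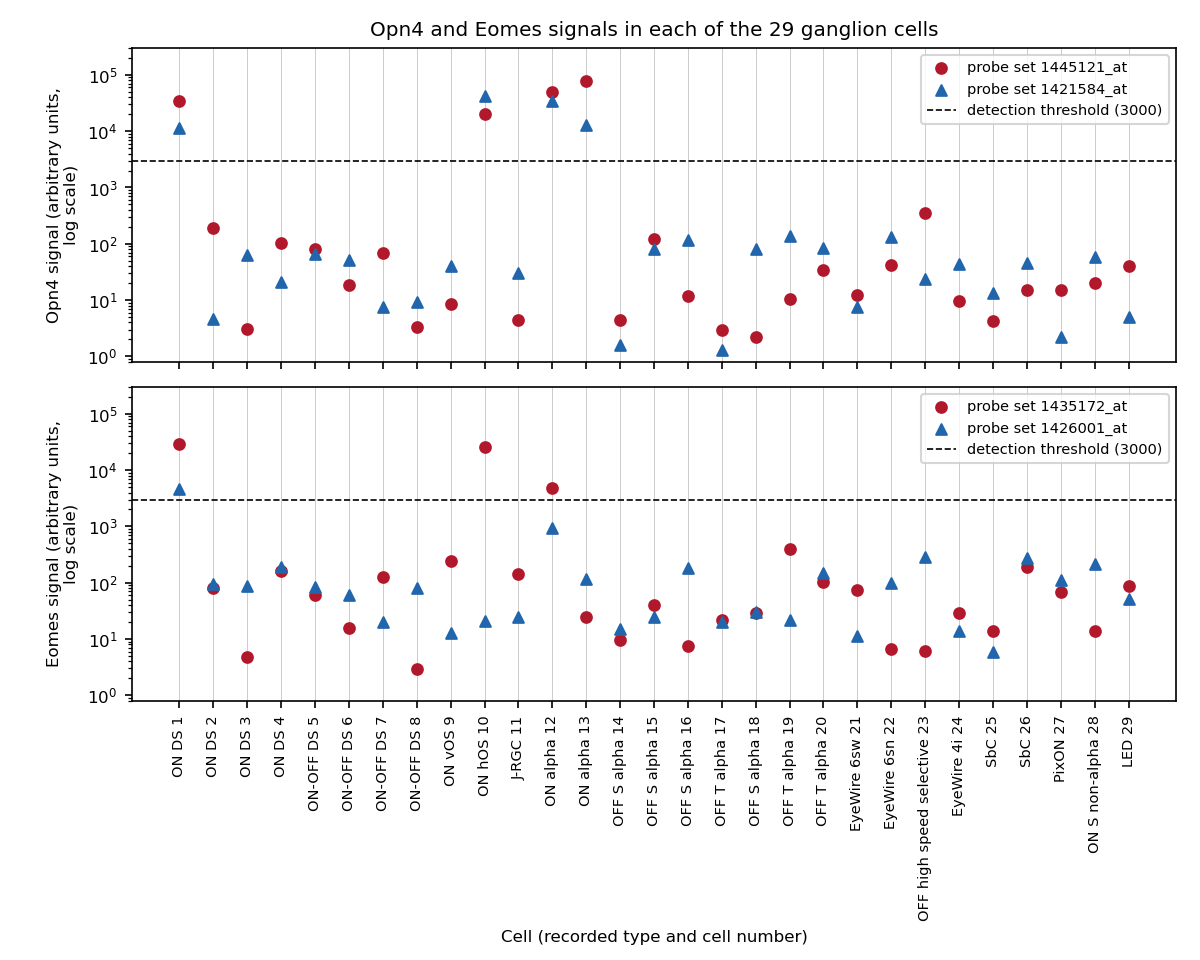
Signals of *Opn4* (upper panel) and *Eomes* (lower panel) in each of the 29 cells, on a log axis, with a symbol for each probe set and a dashed line at the detection threshold of 3000. Both *Opn4* probe sets lie above the line in ON DS 1, ON hOS 10, ON alpha 12 and ON alpha 13, and *Eomes* lies above it in the first 3 of these.

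*Eomes* was detected in 3 of the 29 cells (10.3%, interval 2.19 to 27.4), all of them cells with *Opn4*. At probe set 1435172_at its signal was 28569 in ON DS 1, 25568 in ON hOS 10 and 4791 in ON alpha 12. The second ON alpha cell, ON alpha 13, had 24.7, although its *Opn4* signal at the main probe set was the highest of all. In the 25 cells without *Opn4* the *Eomes* signal ran from 2.96 to 392, with a median of 40.2. The other *Eomes* probe set, 1426001_at, was detected in ON DS 1 alone, at 4697, and its next highest signal was 947 in ON alpha 12.

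The genes of the Gq alpha subunits, which pass the signal from melanopsin to the phospholipase, were scattered over the cells. *Gnaq* was read at probe set 1455729_at and detected in 9 cells (31.0%, interval 15.3 to 50.8). Of the cells with *Opn4*, ON alpha 13 had a *Gnaq* signal of 15989, while ON DS 1, ON hOS 10 and ON alpha 12 had 7.22, 6.73 and 1.89. Of the 25 cells without *Opn4*, 8 had *Gnaq* (32%), with a lowest signal of 1.76, a median of 95.8 and a highest of 28614.5 in ON DS 4. By type, it was detected in 3 of 8 DS cells, 0 of 2 OS cells, 3 of 9 alpha cells and 3 of the remaining 10. Within the OFF alpha cells, 2 of 3 OFF T cells and 0 of 4 OFF S cells had it, and the third OFF T cell stood at 1492.

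The 7 probe sets of *Gnaq* did not mark the same cells. Probe set 1428938_at was detected in 6 cells, among them ON DS 1 at 3666, and 1428940_at in 4. Probe set 1429559_at was detected in J-RGC 11 (3842) and OFF T alpha 20 (13201), and 1428939_s_at in OFF T alpha 20 alone (16128). Probe sets 1447593_x_at and 1450115_at were detected in none, with highest signals of 1490.03 and 235. Counted at any probe set, *Gnaq* was detected in 12 cells, 2 of 4 with *Opn4* and 10 of 25 without.

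*Gna11* encodes the closest relative of the *Gnaq* product and was detected in 7 cells at probe set 1434254_at (24.1%, interval 10.3 to 43.5). Its signal was 3616 in ON alpha 12, and 415, 118 and 218 in ON DS 1, ON hOS 10 and ON alpha 13. The 25 cells without *Opn4* ran from 17.5 to 71724, the highest again in ON DS 4, with a median of 186. *Gna11* was detected in 6 of these 25 cells, and 3 of the 6 were ON cells: ON DS 2 (11446), ON DS 4 and ON S non-alpha 28 (6801). The other *Gna11* probe set, 1449144_at, reached at most 496. Cells with *Gnaq* and cells with *Gna11* shared only ON DS 4 and ON-OFF DS 6 at these probe sets.

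*Gna14* encodes a further Gq family subunit that is found in ipRGCs. None of its 3 probe sets was detected in any cell, and the highest signal was 279 in J-RGC 11. A count of 0 of 29 cells allows a share of up to 11.9% by the same interval.

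*Plcb4*, which encodes the phospholipase C of the melanopsin pathway and of several other neurons, was detected in 24 of 29 cells (82.8%, interval 64.2 to 94.2) at probe set 1435771_at. All 4 cells with *Opn4* had it, at 8293 in ON DS 1, 33305 in ON hOS 10, 50435 in ON alpha 12 and 23069 in ON alpha 13. In the 25 cells without *Opn4* the signal ran from 21.5 to 153005, with a median of 13119, and 20 of them had it. The groups overlapped over the whole range of the cells with *Opn4*, and the highest signals were in OFF S alpha 16 (153005) and EyeWire 6sn 22 (94885).

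The 5 cells without *Plcb4* were ON DS 2 (74.1), ON vOS 9 (146), OFF high speed selective 23 (21.5), EyeWire 4i 24 (415) and OFF T alpha 20 (1172). Of these, ON DS 2 had *Gna11*, EyeWire 4i 24 had *Gnaq*, and OFF T alpha 20 had *Gnaq* at the other probe sets given above. *Plcb4* was detected in 7 of 8 DS cells, 1 of 2 OS cells, 8 of 9 alpha cells and 8 of the other 10. The 4 ON-OFF DS cells lay close together, from 20386 to 53782, whereas the 3 OFF T alpha cells ran from 1172 to 40270. Of the 4 other *Plcb4* probe sets, 1425338_at was detected in ON DS 4 (8687) and OFF S alpha 14 (5554), 1425339_at in OFF T alpha 19 (3663), and 1430871_at and 1441531_at in none.

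The channel genes *Trpc6* and *Trpc7*, each with 1 probe set, were detected in no cell (0 of 29, which allows up to 11.9%). In ON DS 1, ON hOS 10, ON alpha 12 and ON alpha 13 the *Trpc6* signals were 109, 8.48, 26.5 and 3.68. The *Trpc7* signals in the same order were 68.2, 79.9, 40.3 and 46.1. The highest *Trpc6* signal of all, 2785, was in ON-OFF DS 6 and missed the threshold narrowly, whereas the highest *Trpc7* signal was 383 in OFF T alpha 20. A transcript too rare to survive amplification and a transcript that was absent cannot be told apart here.

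**Figure D2:**
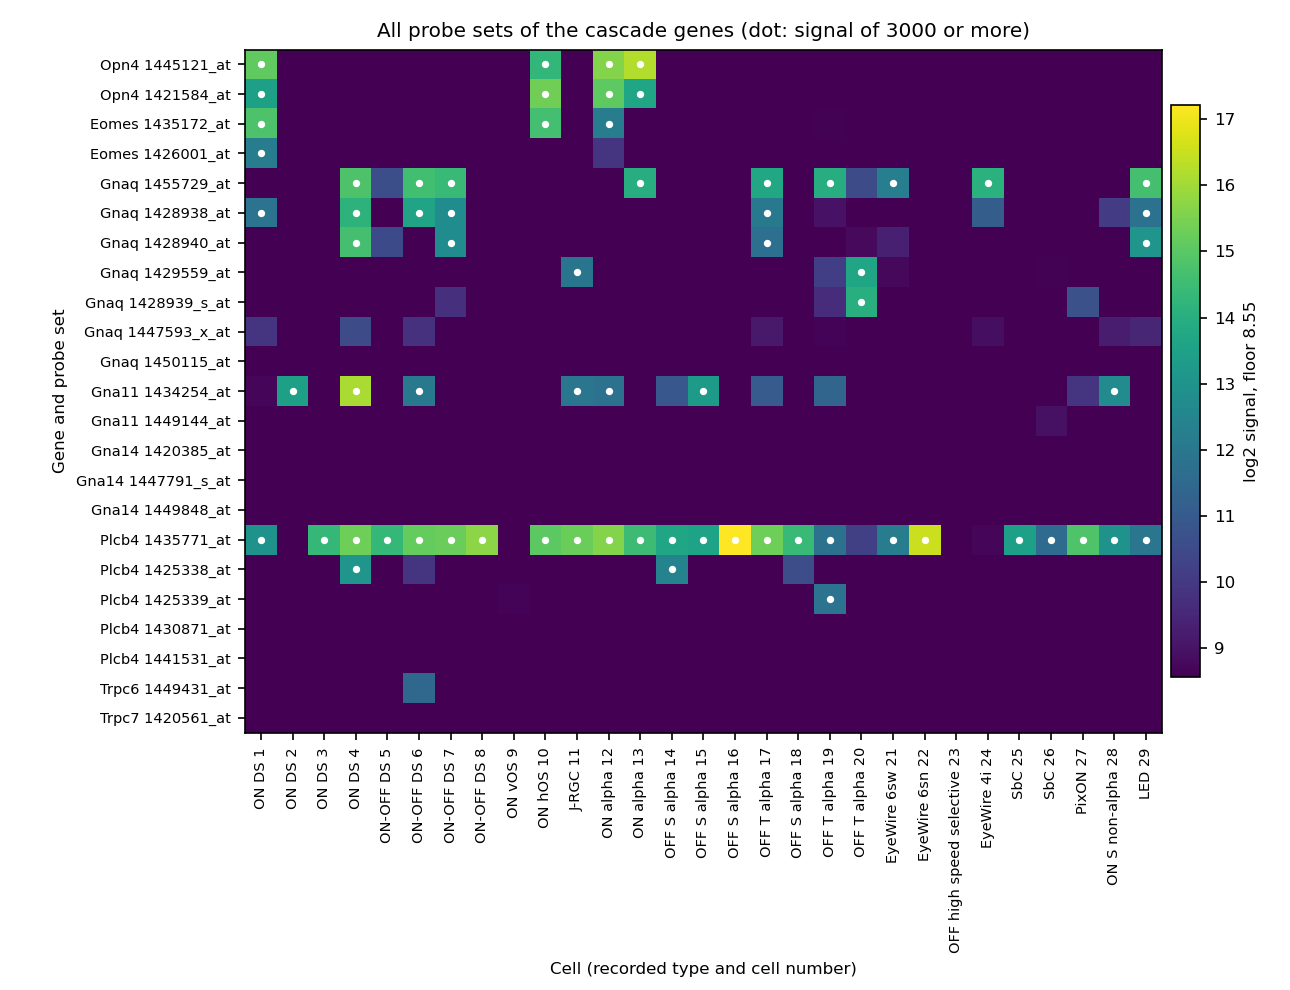
Log2 signals (floor 8.55) of all 23 probe sets of the 8 genes in each of the 29 cells, with a white dot at signals of 3000 or more. *Opn4* and *Eomes* are restricted to 4 columns, a single *Plcb4* probe set is bright in 24 columns, and the rows of *Gna14*, *Trpc6* and *Trpc7* hold no dot.

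No cell had *Opn4*, a Gq subunit gene, *Plcb4* and *Trpc6* or *Trpc7* together (0 of 29). This count was fixed by the channel genes, since neither was detected in any cell. Without the channel step, *Opn4*, a Gq gene and *Plcb4* were detected together in 2 of the 4 cells with *Opn4*, through *Gna11* in ON alpha 12 and through *Gnaq* in ON alpha 13. Both of these Gq calls rested on a single probe set. The highest other *Gnaq* signal in ON alpha 13 was 372, and the other *Gna11* signal in ON alpha 12 was 137. ON DS 1 joined these 2 cells through *Gnaq* probe set 1428938_at when any probe set was counted, which made 3 cells. ON hOS 10 had *Opn4*, *Eomes* and *Plcb4* and no Gq gene at any probe set. A Gq gene and *Plcb4* were found together in 10 of the 25 cells without *Opn4* (40%, interval 21.1 to 61.3), and ON DS 4 and ON-OFF DS 6 had *Gnaq*, *Gna11* and *Plcb4*. Under quantile normalization the count of 2 cells fell to 1, and a threshold of 6000 also gave 1.

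The cells with *Opn4* were then set against the 25 without it. These groups are defined by a measured signal, so the comparison is a description, and it is given beside the same measure over the 7112 other genes detected in at least 3 cells. Of those genes, 59.8% were detected in a larger share of the cells with *Opn4*. The median log2 signal, taken with a floor of 8.55, was higher by 1 or more in cells with *Opn4* for 34% of them and lower by 1 or more for 8.37%. Genes detected in at least 3 of the 4 cells with *Opn4* and in no other cell made up 0.0562% (4 genes), and genes whose signals did not overlap between the groups, with every cell with *Opn4* higher, made up 0.0984% (7 genes).

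*Eomes* was 1 of those 4 genes. It was detected in 3 of 4 cells with *Opn4* and 0 of 25 without (0%, interval up to 13.7), and its median log2 signal was 13.4 against that floor, a difference of 4.88. Its groups overlapped through ON alpha 13. *Eomes* met the minimum of 3 cells through the cells with *Opn4* alone, so this difference was in part fixed by that minimum. Without ON DS 1 the difference was 3.68, and without ON alpha 12 it was 6.09. At the other *Eomes* probe set, 1426001_at, the difference was only 0.67, with 1 of the 4 cells with *Opn4* detected. ON hOS 10 had 20.9 at that probe set, against 25568 at the main one.

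The other cascade genes differed less. The median log2 signal of *Plcb4* was 14.8 with *Opn4* and 13.7 without, a difference of 1.08, which is smaller than the SD of 1.11 among the 4 cells with *Opn4*. This difference fell below 1 in 15 of the 29 runs that each left out 1 cell, with 0.76 as the lowest (without ON DS 2, among others). It was 0.71 under quantile normalization and 0.05 without the 18 cells that had at least 5 rod genes, so *Plcb4* is counted as higher by 1 only in part of the settings. *Gna11* differed by 0.07 and *Gnaq* by 0, since the medians of both *Gnaq* groups lay at the floor. *Gna14*, *Trpc6* and *Trpc7* lay at the floor in the medians of both groups. Against the 6 ON cells without *Opn4* alone, the median of *Gna11* was lower by 2.67 in cells with *Opn4* (-2.67), since 3 of those 6 cells had it. Of the 4 genes other than *Opn4* that were detected in at least 3 cells, 3 had a larger share with *Opn4* (*Eomes*, *Gna11* and *Plcb4*), 2 were higher by 1 or more (*Eomes* and *Plcb4*) and none was lower by 1. For *Gna11* the shares were nearly equal, at 25% (1 of 4 cells) with *Opn4* and 24% (6 of 25) without. A count of 4 genes is too small to be read against the percentages over all genes.

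**Figure D3:**
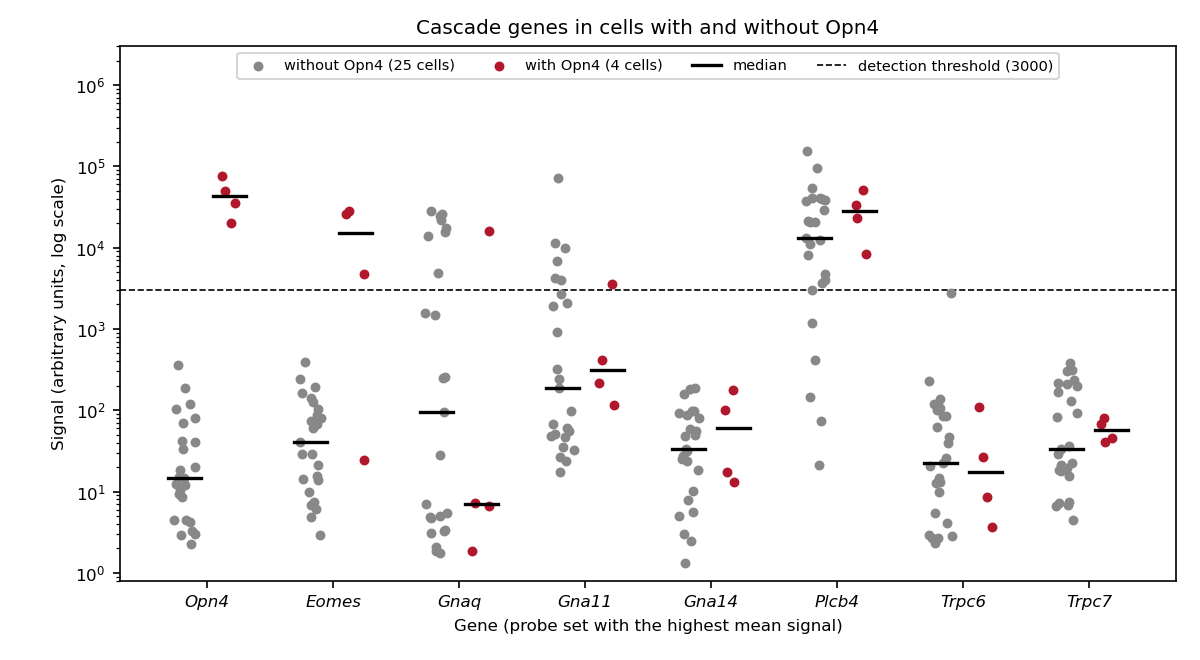
Signals of the 8 genes, each at its brightest probe set over the 29 cells, in the 4 cells with *Opn4* (red) and the 25 without (grey), on a log axis with the median of each group as a black bar and the detection threshold of 3000 dashed. *Opn4* is separated by construction, 3 of 4 red *Eomes* points lie above all grey points, and the *Gnaq*, *Gna11* and *Plcb4* points of both groups overlap.

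The genes whose log2 signals followed *Opn4* most closely over the 29 cells were ranked among the same 7112 genes. The values are Pearson r, described without a test. The points share their arrays and amplification, and 25 of them lie at the floor of *Opn4*, so each r rests on the 4 cells with it. The order was *Hs3st4*, a heparan sulfate sulfotransferase (0.95), *Prph*, the intermediate filament peripherin (0.90), *Prkcq*, a diacylglycerol-activated protein kinase C (0.86), *S100b*, a calcium-binding protein (0.85), *Sema5b*, a semaphorin (0.84), *Mipep*, a mitochondrial peptidase (0.82), *Atg7*, an autophagy enzyme (0.79), *Eomes* (0.77), *Parm1*, a mucin-like membrane protein (0.76), and *Irx2*, an Iroquois homeobox factor (0.71). *Eomes* was thus the eighth gene and the only other cascade gene near the top, while *Plcb4* had 0.19, *Gnaq* -0.05 and *Gna11* -0.10.

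For 6 of these 10 genes (*Hs3st4*, *Prph*, *Prkcq*, *S100b*, *Sema5b* and *Parm1*) every cell with *Opn4* had a higher signal than every cell without. The 10 genes were picked for their correlation with *Opn4*, so this restates the choice. The gap was wide for *Prph* and narrow for *Prkcq*. *Prph* was 106279 in ON DS 1, 114288 in ON hOS 10, 107728 in ON alpha 12 and 70437 in ON alpha 13, against at most 10146 in a cell without *Opn4*. *Prkcq* was 79690 in ON DS 1, 443 in ON hOS 10, 5457 in ON alpha 12 and 17467 in ON alpha 13, against at most 429 elsewhere. *Hs3st4* was 14074 in ON DS 1, 1505 in ON hOS 10, 9845 in ON alpha 12 and 18152.5 in ON alpha 13, against at most 1076. *Prph* and *S100b* were thus in all 4 cells with *Opn4* and in 2 others each, whereas *Prkcq* and *Hs3st4* were in 3 and in no other. *Prkcq*, *Hs3st4* and *Mipep* met the minimum of 3 cells through the cells with *Opn4* alone, as *Eomes* did, so their absence from the other cells was in part fixed by that minimum. Of the 4 cells, ON alpha 12 had all 10 genes, and the others lacked different ones. ON hOS 10 was below the threshold for *Hs3st4*, *Prkcq* and *Atg7* (18.1), ON DS 1 for *Irx2* (1017), and ON alpha 13 for *Eomes* and *Mipep* (1174).

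The study had named *Prkcq*, *Prph*, *Ctxn3* and *Irx6*, among others, with *Opn4* from these same cells, so their high values are not independent evidence. *Ctxn3*, which encodes cortexin 3, ranked 17 (r = 0.66) with signals from 55861 to 84804 in the 4 cells with *Opn4*, and it was also in 4 cells without *Opn4*, among them ON vOS 9 at 86962. *Irx6*, an Iroquois homeobox factor, ranked 24 (r = 0.63), and was in all 4 cells with *Opn4*, in 5 others and in none of the 6 ON cells without *Opn4*. *Pole3*, a small subunit of DNA polymerase epsilon, ranked 20 (r = 0.64) and was in 3 of 4 cells with *Opn4* and 1 of 25 without. *Scn1a*, *Pstpip2*, *Smc2* and *H2-Aa* were each in at most 2 cells, all with *Opn4*, and were not ranked.

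**Figure D4:**
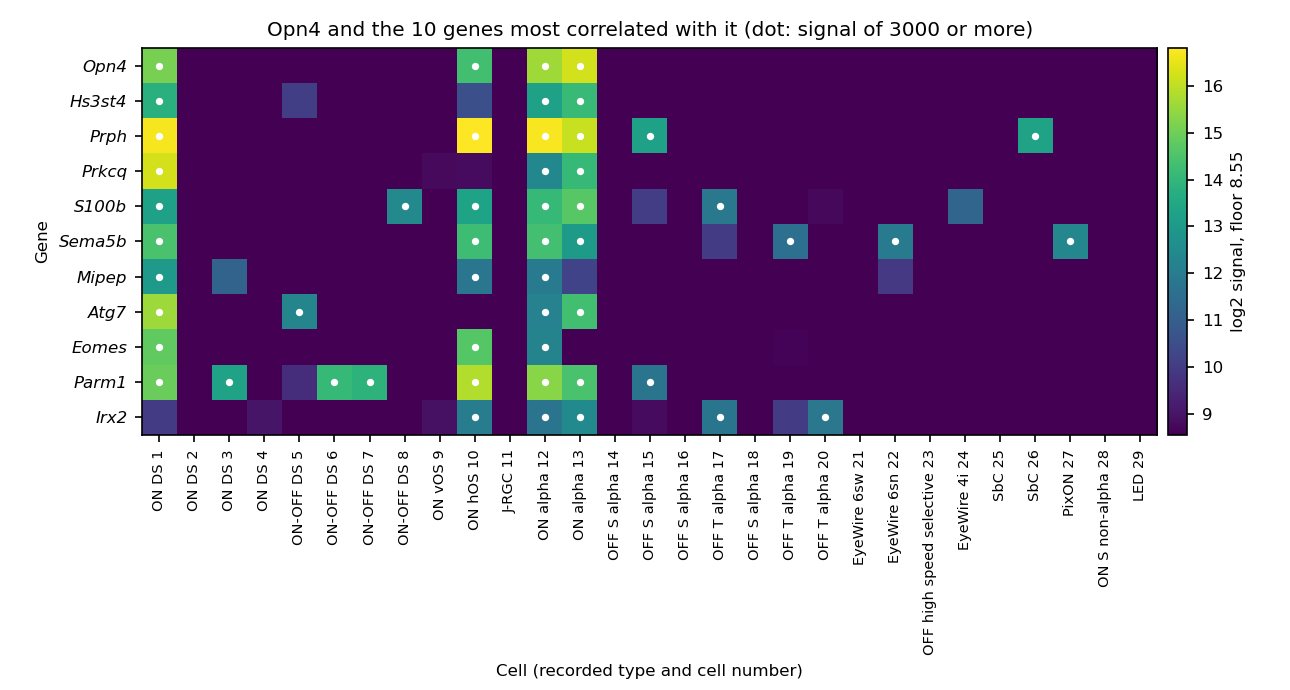
Log2 signals (floor 8.55) of *Opn4* and the 10 genes with the highest correlation with it, from top to bottom in order of Pearson r, in the 29 cells, with a white dot at signals of 3000 or more. Bright tiles gather in the columns of ON DS 1, ON hOS 10, ON alpha 12 and ON alpha 13, each of which lacks dots in a different set of rows, except ON alpha 12, which has a dot in every row.

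Rankings for the other detected cascade genes gave different partners. For *Eomes* these were *Mipep* (r = 0.85), *Prph* (0.77) and *Klhl25*, a ubiquitin ligase adaptor (0.77). For *Gnaq* they were *Fam118b* (0.76), *Srpr*, a subunit of the signal recognition particle receptor (0.72), and *Bag2*, a chaperone partner (0.68). For *Gna11* they were *Dbndd1* (0.70), *Timm50*, part of the mitochondrial import machinery (0.68), and *Sema4g*, a semaphorin (0.68). For *Plcb4* they were *Nrsn2*, a neuronal vesicle protein (0.70), *Myo5a*, the motor myosin Va (0.69), and *Elovl6*, a fatty acid elongase (0.67). Only *Eomes* shared partners with *Opn4* in these lists. Between the cascade genes themselves, the pair *Opn4* and *Eomes* had the highest r (0.77), and the next, *Opn4* and *Plcb4*, had 0.19.

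The wider pathway was described from lists of genes that act beside the 8 in G protein signalling or have been associated with ipRGCs. Outside the 8, 64 listed genes were detected in at least 3 cells, and 36 of these (56.25%) had a larger share in cells with *Opn4*, 24 (37.5%) were higher by 1 or more and 10 (15.6%) lower. Over all genes these shares were 59.8%, 34% and 8.37%. The 64 genes include 7 that the study had named with *Opn4* from these cells. Without those 7, 29 of 57 genes (50.9%) had a larger share, 17 (29.8%) were higher by 1 or more and 10 (17.5%) lower. The lists also hold genes of rods, and the 10 lower genes include *Gnat1* and *Cnga1*, so they are not all genes of the melanopsin pathway.

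All 7 genes of the phospholipase C list in at least 3 cells had a larger share with *Opn4*, and 6 of the 7 had a median higher by 1 or more, with *Plcb4* counted among them, against 59.8% and 34% over all genes. For 3 of the 7 the larger share rests on 1 of the 4 cells: *Plcg1* (1 of 4 and 2 of 25), *Plcd3* (1 of 4 and 4 of 25) and *Plch2* (1 of 4 and 5 of 25). A count of 7 genes is too small to be read against those percentages. *Plcd4*, a delta-type phospholipase C, was the clearest, with 4034 as the lowest and 32130 as the highest signal of the 4 cells with *Opn4*. It was detected in all 4 of them and in 3 of 25 others (12%), whose highest signal was 29804, a difference of medians of 5.71. Of the 6 ON cells without *Opn4*, 2 had *Plcd4*, at up to 9983, and against those 6 the difference of medians was 4.54. *Plcb1* (2 of 4 and 6 of 25) and *Plcg2* (2 of 4 and 4 of 25) were less frequent.

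Among the canonical TRP channels, *Trpc1* alone was detected, in 1 of 4 cells with *Opn4* and 6 of 25 without. HCN and cyclic nucleotide-gated channels have also been implicated in the light response of some ipRGC types, and of this list *Hcn3* was in 1 of 4 cells with *Opn4* and 3 of 25 without, and *Hcn2* in none. *Cnga1*, the channel of rods, was in 2 of 4 and 13 of 25 cells.

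Receptor shut-off genes were split, with 5 of 10 at a larger and 5 at a smaller share with *Opn4*, against 59.8% and 38.8% over all genes. *Arrb1*, which encodes beta-arrestin 1, and *Rgs4*, a regulator that ends G protein signals, were each in all 4 cells with *Opn4* and in 18 of 25 without. The *Rgs4* signals of the 4 cells lay between 54128 and 59863. *Rgs8*, another such regulator, went the other way: it was at most 179 in the 4 cells with *Opn4* and detected in 15 of the 25 others, with a median signal of 20741 there and a difference of medians of -5.79. Its signal was also above the threshold in 3 of the 6 ON cells without *Opn4*.

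Other G alpha genes included *Gnas*, the stimulatory subunit, in all 29 cells, and *Gnaz*, a Gi family member, in 2 of 4 cells with *Opn4* and 19 of 25 without, all 6 ON cells without *Opn4* among them. *Gnao1*, the neuronal Go subunit, was in 1 of 4 and 13 of 25. Of 9 beta and gamma subunit genes, 7 had a smaller share with *Opn4*, against the 38.8% over all genes, and none was higher by 1, again too few genes to be read against a percentage.

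Of the genes associated with ipRGCs, 13 of 14 in at least 3 cells had a larger share with *Opn4* and 11 were higher by 1, but this list contains genes that the study picked on these cells. Among those it did not pick, *Kcng4*, a potassium channel subunit of alpha cells, was in all 4 cells with *Opn4* (4818 to 36557) and 4 of 25 without. *Nefh*, the heavy neurofilament subunit, was in all 4 and in 14 of 25. *Pou4f1*, which encodes Brn3a and is low in most ipRGCs, was in 0 of 4 cells with *Opn4* and 11 of 25 without. It was in only 1 of the 6 ON cells without *Opn4*, and against those 6 the difference of medians was 0.26. *Tbx20*, a T-box gene downstream of *Eomes*, was in no cell, and *Adcyap1*, which encodes the transmitter PACAP of ipRGC axons, was in 1 of 4 and 4 of 25.

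**Figure D5:**
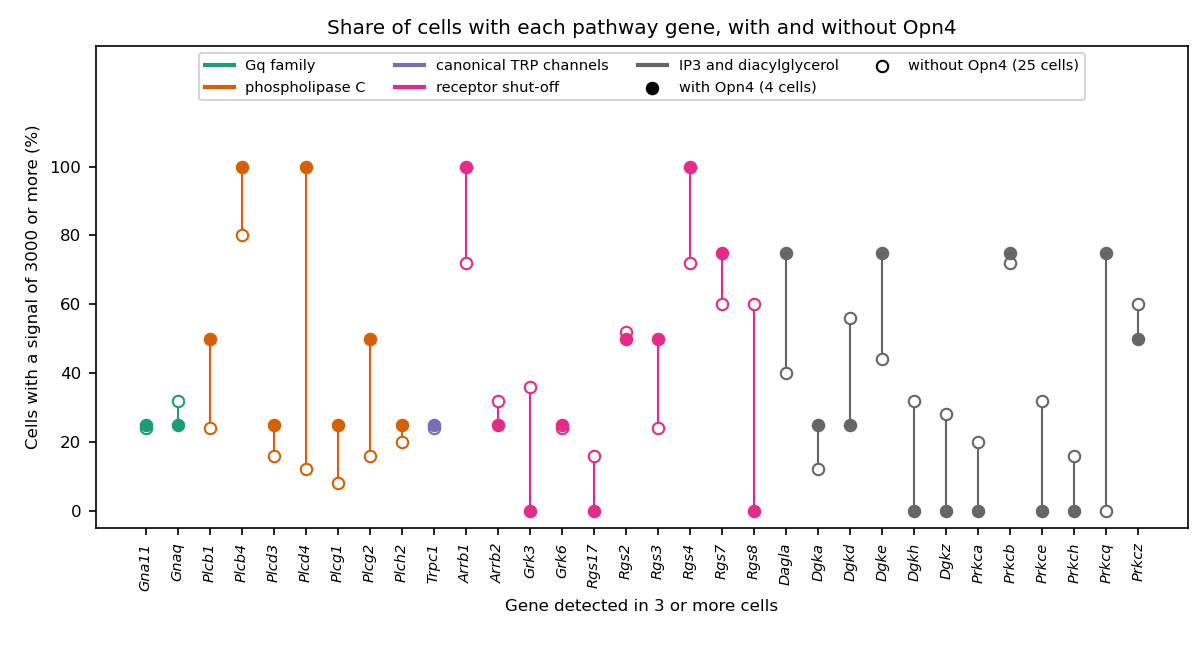
Share of cells (percent) with a signal of 3000 or more for the pathway genes detected in at least 3 cells, in the 4 cells with *Opn4* (filled) and the 25 without (open), coloured by list. The phospholipase C genes all have the filled point above the open one, *Plcd4* with 100% against 12%, while *Rgs8* has 0% against 60%.

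The libraries differed in depth and in RNA of other cells, and the part of these differences in the results was not tested. The number of detected genes was 2713 to 3716 in the cells with *Opn4* (median 3220) and 1182 to 4201 in the others (median 2833). Its correlation over the 29 cells was 0.25 with *Opn4*, 0.14 with *Eomes*, 0.39 with *Gnaq*, 0.08 with *Gna11* and 0.32 with *Plcb4*. Of 13 ganglion cell genes, 9 to 10 were detected in each cell with *Opn4* and 5 to 13 in the others. Of 10 rod genes, 9 were detected in ON DS 1 and ON alpha 13 and 0 in ON hOS 10 and ON alpha 12, against 0 to 9 in the others. Their summed signal ran from 398 to 1429740 with *Opn4* and from 326 to 6680910 without. The correlation of the mean log2 rod signal over the 29 cells was -0.07 with *Opn4* and -0.18 with *Eomes*. With *Gnaq* this correlation was -0.13, with *Gna11* -0.42 and with *Plcb4* -0.31. Cone genes numbered 0 to 3 of 7 with *Opn4* and 0 to 6 without, and Muller glia genes 2 to 4 of 8 with *Opn4* and 0 to 6 without. Microglia genes numbered 0 to 1 of 4 with *Opn4* and 0 to 3 without, and amacrine genes 0 to 1 of 8 with *Opn4* and 0 to 3 without. The bipolar, horizontal, endothelial and pigment epithelium lists were at 0 in all 4 cells with *Opn4*. *Opn4* and *Plcb4* were thus detected both in cells with 9 rod genes and in cells with none. When the 18 cells with at least 5 rod genes were left out, the 2 cells ON hOS 10 and ON alpha 12 remained with *Opn4*, *Gnaq* was in 3 and *Plcb4* in 9 of the 11 cells left.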

How the data were processed

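Single RGCs were recorded, aspirated and lysed, and their cDNA, primed with oligo dT, was amplified for 35 PCR cycles per the labels and hybridized to 1 Affymetrix mouse array for each cell. The authors computed the deposited values, linear MAS5 signal intensities, for 45101 probe sets. The MAS5 version was not given in these sources, and its detection calls were not used. The 2% trimmed mean was 1500 on every array, so levels are relative to each array. Probe sets of several genes (932) or without a gene name (9211) were left out. Of several probe sets of a gene, that with the highest mean over the 29 cells was used, on the log2 scale with a floor of 8.55. Named genes are the 8 members, the 10 highest correlates of *Opn4*, the 3 highest of each other member, the genes the study names with *Opn4*, and listed pathway genes detected in at least 75% of cells with *Opn4* and at most 25% of others, or in none with and at least 50% without. Other pathway genes named were chosen after seeing their values. Members and lists were chosen with earlier results of these data known. The number of detected genes served as depth. Precision is limited by the number of arrays. Intervals are exact at 95%. The ranking was tested on simulated data, and thresholds, floors, normalization, probe sets and left-out cells were varied. Python 3.11.15, numpy 2.4.6, pandas 2.3.3, scipy 1.17.1 and matplotlib 3.10.9 were used. Promoter windows of all 8 members (9 windows) came from RefSeq. Some listed genes are not reported here.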

Additional observations from a re-analysis of the deposited data

Results flagged for a closer look

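Each of the 3 types with 4 cells (ON DS, ON-OFF DS and OFF S alpha) was searched for a cell that lay far from the others of its type, in the log2 signal of each cascade gene with the floor of 8.55. There were 11 such sets with any spread, and 5 had a distant cell. Chance marks about 1 in 20 sets with ordinary spread, but in a set whose other 3 cells lie at or near the floor any detected cell is distant, so the count of 5 is not read against that share. *Opn4* in ON DS 1 is also one of the values that defined the cells with *Opn4*. Among the ON DS cells, ON DS 1 stood apart for *Opn4* (34985) and *Eomes* (28569), and ON DS 4 for *Gnaq* (28614.5). Among the ON-OFF DS cells, ON-OFF DS 6 stood apart for *Gna11* (4277) and for *Trpc6*, at a signal of 2785 that was under the detection threshold.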

How the results depend on the processing

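The 4 cells with *Opn4* stayed 4 at thresholds of 1500 and 6000, at any or all probe sets, under quantile normalization and without SbC 26, the only cell with fewer than 50% of the genes detected in the median cell. They were 2 when the 18 cells with at least 5 rod genes were left out, an alternative added after seeing the data, and 3 to 4 when each cell was left out in turn. The 5 cascade genes detected in a cell fell to 2 when all probe sets had to be detected, stayed 5 in every leave-one-out run, and were within 1.5 times of 5 under the other settings. The whole chain stayed at 0 cells throughout, a count that was fixed in advance wherever neither channel gene was detected. *Trpc6* reached 1 cell at a threshold of 1500, *Trpc7* 1 cell under quantile normalization, and *Gna11* fell from 7 to 4 cells at 6000. The 3 genes other than *Opn4* with a larger share in cells with *Opn4* numbered 2 to 4 when each cell was left out. Of the 10 genes most correlated with *Opn4*, 6 remained among the first 10 under quantile normalization, with no floor, and without the 2 cells farthest from the median *Opn4* signal (ON alpha 12 and ON alpha 13), 3 with linear signals and 2 without the 18 cells, and 6 to 10 remained when each cell was left out, the fewest without ON DS 1. The r of *Eomes* with *Opn4* was 0.39 on linear signals and 0.998547 without those 2 ON alpha cells. The latter r rests on ON DS 1 and ON hOS 10 alone, since all other cells left lay at or near the floor for both genes. It also leaves out ON alpha 13, the only cell with *Opn4* in which *Eomes* was not detected, so it was largely fixed by the removal. No direction that had been called reversed. The causes were not tested. No paired analysis was possible because the cells carry no shared replicate numbers and no test was made. With 4 cells with *Opn4*, the number of arrays is the main limit.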
